A study of Gorilla gorilla with 12 samples.

Results

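Solute carriers are membrane proteins that move amino acids, sugars, ions, metals, nucleosides and metabolites across the plasma membrane and the membranes of organelles. Their genes carry symbols that begin with SLC and a family number, or with SLCO. The set described here holds every gene on the array whose annotation gave 1 such symbol, which came to 154 of 8229 genes and 187 of 10961 probe sets with 1 symbol. Where a gene had several probe sets, as 29 of the 154 did, the probe set with the highest mean log2 intensity over the 11 standard arrays stood for it. Another 5 probe sets listed an SLC gene together with other symbols and were left out. The symbol rule also took in SLC67A1-AS, an antisense transcript, and SLC26A10P, a pseudogene, which encode no transporter.

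The series measured total RNA of gorilla fibroblast lines, cultured connective tissue cells of animals described as normal, with 1 array per culture and 12 arrays in all. Under the standard conditions there were 11 lines, 6 labelled female, from donors aged 19, 19, 35, 26, 30 and 2 years, and 5 labelled male, from donors aged 19, 26, 24, 18 and 3 years. Lines are numbered here in that order within each sex, and the numbers pair nothing. A second culture of male 2, the male of 26 years, was harvested at 50% confluence, when cells cover part of the dish. Each line gave 1 standard array, and the p-values reflect the variation among lines, with precision limited by how few arrays there are.

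Most solute carriers use no energy source of their own. Exchangers trade a solute for another, cotransporters draw on the sodium or proton gradient, and uniporters let a solute run down its own gradient. Fibroblasts are known to import glutamine, cationic and large neutral amino acids, glucose and phosphate through a handful of widely expressed carriers, while many other members are known mainly from kidney, gut, liver or nerve cells. Mitochondrial carriers of the SLC25 family exchange metabolites with the matrix, and SLC35 carriers load the Golgi and endoplasmic reticulum with nucleotide sugars.

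Values were intensities on a linear scale, 1 per probe set, with a floor of 100. On each array 40.1% to 49.2% of all probe sets stood at the floor, and between 77 and 98 of the 154 solute carriers stood above it. At the floor, only an upper limit of the intensity is known. The probes were designed on human sequence, and gorilla RNA that differs under a probe gives a lower intensity, so no level is read against that of another gene. All 8 fibroblast markers with a probe set stood above the floor on all 12 arrays, and their summed intensity ran from 64976 to 121074. Of 6 epithelial markers 1 did so, KRT8 (882 to 1662), while KRT5 and KRT14 stood at the floor on every array, and the 6 summed to 1382 to 2515. Of 4 leukocyte markers CD68 (420 to 1080) and CD3E stood above the floor throughout, CD14 reached 1673, PTPRC stood at the floor throughout, and the sum ran from 791 to 2672. None of 5 endothelial or 4 muscle markers stood above it on all arrays, with VWF and MYF5 at the floor throughout and MYOG up to 550, and their sums ran from 500 to 727 and from 400 to 873. Of 3 melanocyte markers MLANA did, with a sum of 306 to 841. The part of such cells in the results was not tested. The line labelled female 3 had an intensity of 2595 for RPS4Y1, a gene of the Y chromosome, against 100 to 115 in the other lines labelled female and 2662 to 4363 in those labelled male, so results that rest on it are given with and without it.

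Of the 154 solute carriers, 53 (34.4%) stood above the floor on all 12 arrays, against 42.6% of all 8229 genes. At the other end, 22 (14.3%) stood at the floor on every array, against 15.2% of all genes. In between, 46 stood above it on 1 to 5 arrays and 33 on 6 to 11. The 32 genes of ABC transporters, which are driven by ATP, gave 31.2% above the floor on all arrays, and 47 genes of ATP-driven ion and lipid pumps gave 57.4%. The share of solute carriers with signal throughout was thus below that of all genes on the array and near that of ABC transporters, and these shares were not tested.

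**Figure D1:**
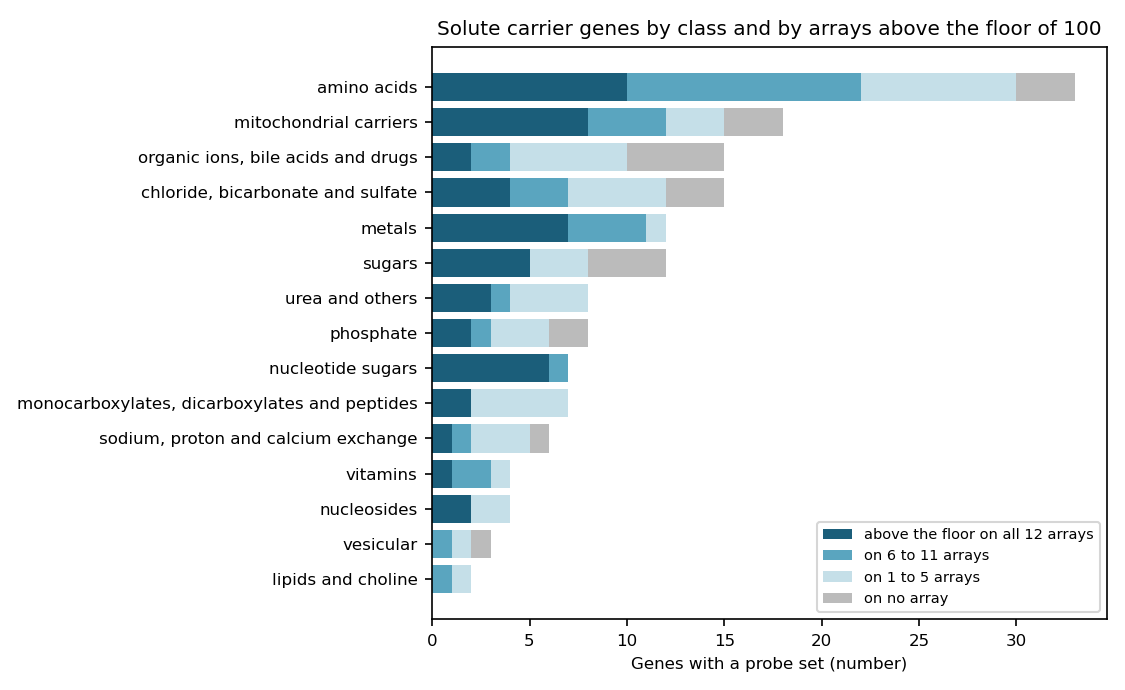
Number of solute carrier genes in each transport class, split by the number of the 12 arrays on which the gene stood above the floor of 100. Amino acid transporters are the largest class with 33 genes, of which 10 stood above the floor on all arrays, and 6 of the 7 nucleotide sugar transporters did so.

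Amino acid transporters made up the largest class, and 10 of its 33 genes stood above the floor on all 12 arrays. SLC3A2, the heavy chain that carries several light-chain exchangers to the cell surface, had intensities from 1508 to 2713 in the 11 lines and was among the steadiest members, with an SD of 0.24 on the log2 scale. SLC7A5, the light chain that takes up leucine and other large neutral amino acids, ranged from 664 to 1970. SLC1A5, the main glutamine importer of many cultured cells, ranged from 931 to 4077, and SLC1A4, its relative for alanine, serine and cysteine, from 168 to 819. SLC7A1, which imports arginine and lysine, ranged from 133 to 894, and the glycine transporter SLC6A9 from 150 to 525. SLC36A1, SLC43A1, SLC6A7 and SLC7A6 completed the 10. SLC1A7, SLC38A3 and SLC6A12 stood at the floor on all 12 arrays.

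Of 12 carriers of sugars and related solutes, 5 stood above the floor throughout. SLC2A1, the widespread glucose uniporter, ranged from 129 to 317, and SLC2A3, a glucose uniporter of high affinity best known from neurons, from 382 to 1791. SLC5A3, which concentrates the osmolyte myo-inositol with sodium, ranged from 333 to 2913, SLC5A6, which imports biotin and pantothenate, from 416 to 1050, and SLC5A2, known as a kidney glucose cotransporter, from 165 to 400. SLC2A2 and SLC2A4, the glucose carriers of liver and of insulin-responsive muscle and fat, stood at the floor on all 12 arrays, as did SLC5A12 and the thyroid iodide carrier SLC5A5.

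Nucleotide sugar carriers and the glucose 6-phosphate carrier SLC37A4 of the endoplasmic reticulum gave 6 of 7 genes on all 12 arrays. SLC37A4 ranged only from 734 to 1195 over the 11 lines, and SLC35A1, which brings CMP-sialic acid into the Golgi, from 275 to 448, with an SD of 0.22 for each. SLC35A2, the UDP-galactose carrier, ranged from 149 to 469, SLC35B1 from 125 to 407, SLC35A3 from 466 to 828 and SLC35D1 from 360 to 1007. Of 18 mitochondrial carriers, 8 stood above the floor throughout. SLC25A1, the citrate carrier, had the smallest SD of all solute carriers that passed the filter on low values (0.18), with intensities from 2528 to 4244. SLC25A3, the mitochondrial phosphate carrier, ranged from 5079 to 9261. The ADP/ATP carriers SLC25A4 and SLC25A5 ranged from 380 to 958 and from 229 to 1171, the oxoglutarate carrier SLC25A11 from 244 to 602, and SLC25A36, which carries pyrimidine nucleotides, from 307 to 528. SLC25A24, SLC25A26 and SLC25A40 stood at the floor on every array.

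Metal carriers gave 7 of 12 genes above the floor on all arrays and none at the floor on all. The zinc importer SLC39A14 ranged from 1645 to 3656, its relatives SLC39A7 and SLC39A6 from 415 to 1081 and from 311 to 584, the zinc exporters SLC30A1 and SLC30A3 from 354 to 898 and from 334 to 696, and the copper importer SLC31A1 from 448 to 772. Both phosphate importers of the SLC20 family stood above the floor throughout, SLC20A1 between 281 and 924 and SLC20A2 between 245 and 902, while SLC34A1, the kidney phosphate carrier, stood at the floor. Of 15 carriers of chloride, bicarbonate and sulfate, 4 stood above the floor throughout, namely the potassium chloride cotransporter SLC12A4 (678 to 1297), the anion exchangers SLC4A2 (1299 to 2513) and SLC4A3 (371 to 728) and the sodium bicarbonate cotransporter SLC4A7 (224 to 503 in the 11 lines). The nucleoside uniporters SLC29A1 and SLC29A2, SLC13A2, SLC16A5 and the sodium-dependent vitamin C carrier SLC23A2 (265 to 496) also stood above it on all arrays, as did the potassium-dependent sodium calcium exchanger SLC24A1 (101 to 271). Of 15 carriers of organic ions, bile acids and drugs, SLC10A3 (697 to 1495) and SLC22A24 (147 to 519) were above the floor throughout. Another 5, among them the bile acid carriers SLC10A1 and SLC10A2 and the kidney cation carrier SLC22A2, stood at it throughout. Among the remaining carriers, SLC75A1 ranged from 2090 to 4182, SLC61A1 from 278 to 550 and SLC67A1 from 212 to 1564.

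For comparisons, 94 of the 154 genes passed a filter that required a mean log2 intensity above the 40th percentile. A gene low in most lines can pass through the lines where it is high. Over the 11 standard lines, the median SD of these 94 was 0.41 on the log2 scale of quantile-normalized values, against 0.40 over all 5478 genes that passed. The ratio of the highest to the lowest deposited intensity was at least 4-fold for 15 of the 94 (16%), against 13.1% of all genes that passed, 2 of 16 ABC transporters and 2 of 41 pump genes. The 15 are a share near that of all genes. Among them are 6 of the 24 members of the amino acid class that passed the filter, the creatine transporter SLC6A8 included. Of the 6, 3 no longer reached 4-fold without the line labelled female 3, namely SLC1A4 (3.96-fold), SLC1A5 (2.48-fold) and SLC7A1 (2.58-fold). SLC1A4 also fell below 4-fold without male 1, and SLC1A5 without female 4.

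**Figure D2:**
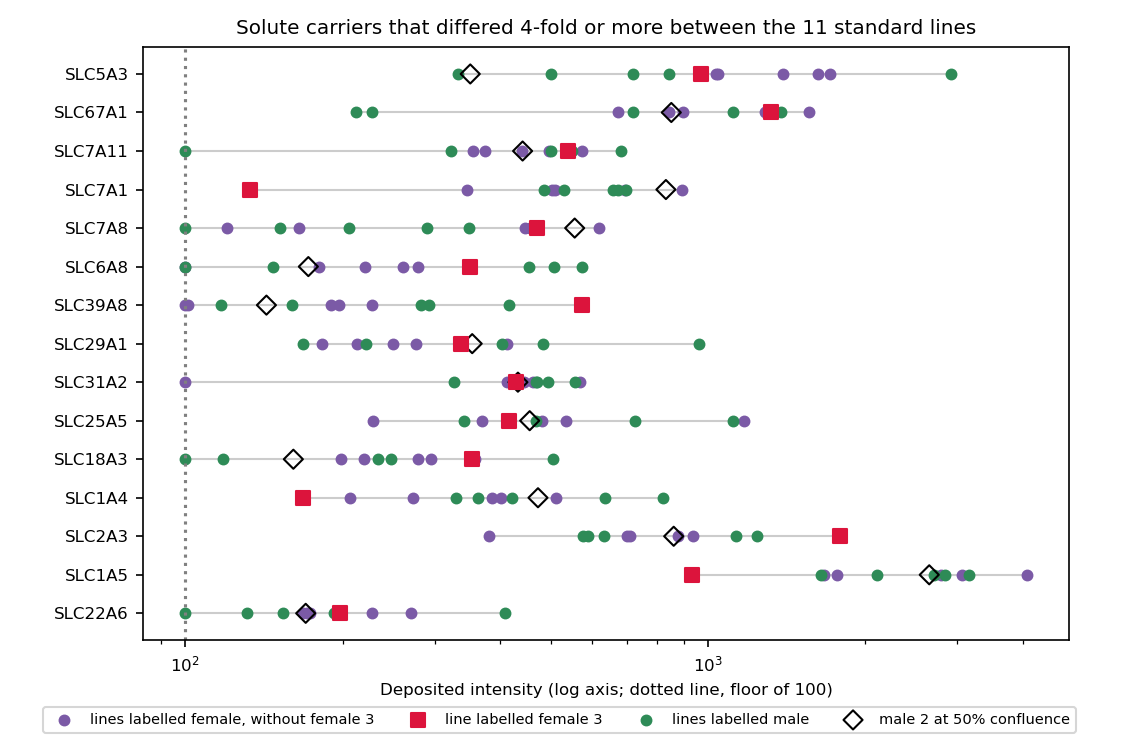
Deposited intensity on a log axis of the 15 solute carriers that differed 4-fold or more between the 11 standard lines. Each point is an array, coloured by the sex in the labels, with the line labelled female 3 as a square, the culture at 50% confluence as an open diamond and the floor of 100 as a dotted line. For SLC67A1, males 1 and 3 lie apart at 228 and 212, and the other 9 lines lie between 672 and 1564.

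SLC5A3, the myo-inositol cotransporter, spanned 8.75-fold, the largest ratio computed among these 15, of which those with a line at the floor have only a lower bound. Lines labelled female gave 1038, 1625, 971, 1045, 1711 and 1395, and males 1 to 5 gave 333, 843, 718, 502 and 2913. Males 1 to 4 were thus below all 6 lines labelled female, and male 5, the donor of 3 years, was above every other line. A second probe set of the gene ranged from 100 to 216 and stood at the floor in 6 lines.

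SLC67A1, formerly named SLC22A18, an imprinted gene in humans that encodes an organic cation transporter-like protein, had the largest SD (0.95). Females 1 to 6 gave 1285, 672, 1322, 1564, 844 and 895, and males 1 to 5 gave 228, 1382, 212, 1117 and 720. The low values of males 1 and 3 stood apart, and the other 3 males lay among the females. The highest line stood 7.38-fold above the lowest.

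SLC7A8, a light chain of SLC3A2 for neutral amino acids, gave 446, 165, 470, 456, 619 and 120 in females 1 to 6, and 100, 152, 349, 206 and 290 in males 1 to 5. The highest line was at least 6.19-fold above male 1, which stood at the floor, and the groups overlapped. SLC7A11, another light chain of SLC3A2, which brings in cystine for glutathione, was instead set apart by a single line. It stood at the floor in male 5 and between 323 and 683 in the other 10 lines, a difference of at least 6.83-fold between the highest line and male 5.

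A single low line also marked SLC31A2, a copper transporter of endosomes and lysosomes: female 6, the donor of 2 years, stood at the floor and the other 10 lines between 327 and 570. The nucleoside uniporter SLC29A1 had a single high line, male 3 at 962, with the other 10 between 168 and 484. SLC39A8, which imports zinc and manganese, ranged from the floor in female 4 to 574 in the line labelled female 3. Without that line the highest was male 4, at 416. SLC6A8, the creatine transporter, stood at the floor in female 5 and male 5 and reached 574 in male 3. A second probe set that passed the filter stood at the floor in males 3 and 5 and gave 229 in female 5, within a range of 100 to 237. The chosen probe set can bind a near-identical copy of the gene, so its values are uncertain. SLC25A5, 5.11-fold between female 4 (229) and female 5 (1171), likewise has many processed copies. SLC18A3, which loads acetylcholine into vesicles, and SLC22A6, a kidney anion carrier, ranged from the floor in male 1 to 505 in male 2 and 409 in male 4. SLC38A10 and SLC7A7, at the floor in several lines and at most 322 and 351, were also among the 12 members with the largest SDs.

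The other 4 of the 15, SLC1A4, SLC1A5, SLC7A1 and SLC2A3, each had an extreme in the line labelled female 3, and without that line 11 genes passed 4-fold. SLC2A3 also fell below 4-fold without female 5. SLC7A1, the arginine and lysine importer, gave 346, 503, 133, 510, 894 and 693 in females 1 to 6, and 659, 485, 672, 530 and 698 in males 1 to 5. SLC1A5, the glutamine importer, gave 3064, 1671, 931, 4077, 1762 and 2796 in females, and 2713, 3159, 1643, 2839 and 2106 in males. The line labelled female 3 was the lowest for both, clearly below the other 10.

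SLC1A4 in this line was 168 against 207 to 819 in the other 10, and SLC7A5 was 664 against 688 to 1970. The line was thus the lowest of the 11 for 4 of the 10 amino acid transporters with signal on all 12 arrays. Over all 53 solute carriers of that kind it was the lowest for 7 (13.2%), against 12.4% of 3537 genes above the floor in all 11 lines. SLC3A2, the heavy chain of SLC7A5, at 2620, lay within the range of the other lines. ASNS, the enzyme that makes asparagine and is known to be induced with several of these carriers when amino acids are scarce, was 509 in the line against 880 to 2212 in the others, while ATF4, the factor that drives that response, was 3609 and within their range of 1947 to 4286. SLC2A3 was highest in this line, at 1791 against 382 to 1243, together with TXNIP, a glucose-responsive inhibitor of glucose uptake (3971 against 699 to 3069), and CA12, a carbonic anhydrase of the cell surface (5118 against 349 to 1574). ASNS, ATF4, TXNIP and CA12 come from the list of partner genes described further on, and they, SLC7A5 and this line were singled out after their values were seen.

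Second probe sets exist for 2 of these carriers, and both passed the filter. For SLC7A1 the second probe set stood at the floor in females 3 and 4 and between 115 and 285 in the other 9 lines. For SLC1A4 the second gave 215 in the line labelled female 3 within a range of 128 to 257, so the low value there was seen by only 1 of 2 probe sets.

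**Figure D3:**
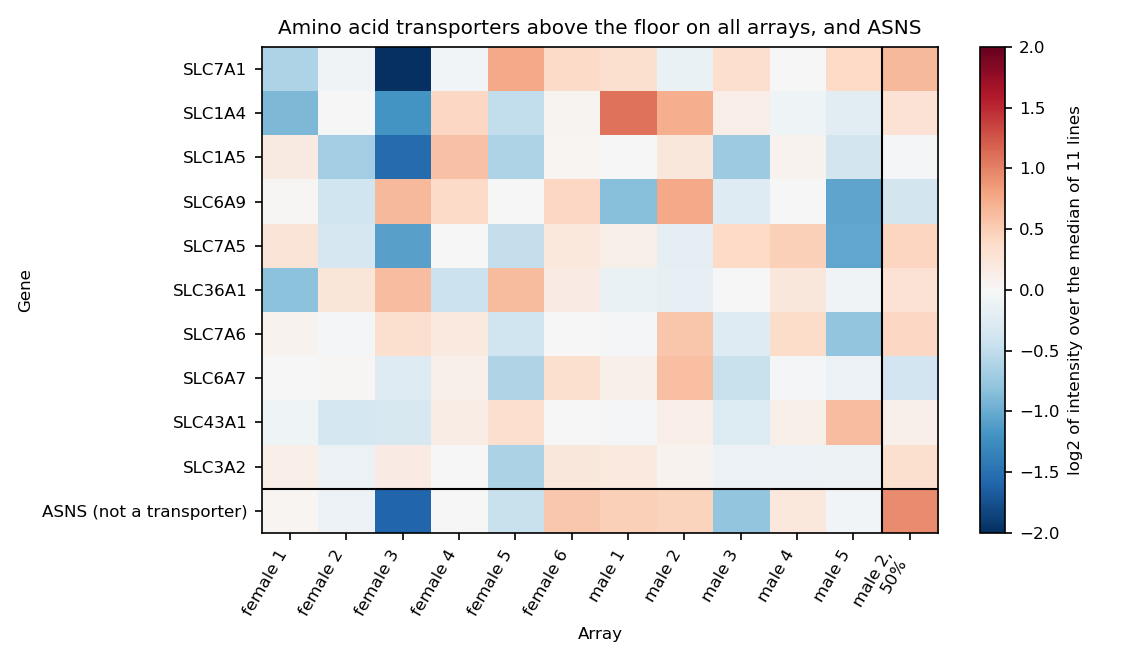
Heat map with genes in rows (the 10 amino acid transporters above the floor on all arrays, and ASNS) and the 12 arrays in columns, where colour is the log2 of the deposited intensity over the median of the 11 standard lines, blue below and red above it. The line labelled female 3 is the lowest of the 11 lines for SLC1A4 (168), SLC1A5 (931), SLC7A1 (133), SLC7A5 (664) and ASNS (509), and lies within the other lines for SLC3A2 (2620).

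Other lines also stood at the ends of the range. Male 1 was the lowest line for 10 of the 53 solute carriers (18.9%), among them SLC5A3, SLC20A2 and 4 of the 6 in the nucleotide sugar class, against 11.2% of all genes. Female 4 was the highest for 11 (20.8%), among them SLC1A5, SLC25A1, SLC25A3 and SLC67A1, against 11.2% of all genes. These shares were not tested.

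The labels set the culture of male 2 at 50% confluence against the standard culture of the same line. With 1 array on each side, the difference has no replicate check and no p-value. No solute carrier was higher at 50% confluence by 2-fold or more with a value above all 11 standard lines, against 1.62% of all 5478 genes. SLC13A2 and SLC4A7 were lower by 2-fold or more with a value below all 11 lines, 2 of 94, against 1.41% of all genes. SLC13A2, a sodium cotransporter of citrate and other dicarboxylates, was 588 in the standard culture and 190 at 50% confluence, 2.75-fold lower after quantile normalization, with the 11 standard lines between 284 and 588. The standard culture of male 2 was itself the highest of the 11. SLC4A7, which imports bicarbonate with sodium, was 364 and 138, 2.15-fold lower, with the lines between 224 and 503. With the floor raised to 200, or after median scaling, SLC13A2 remained and SLC4A7 did not. On deposited values SLC5A2, known as a kidney glucose cotransporter, also lay below all 11 lines, at 161 against a lowest line of 165.

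Without the condition on the range, 5 of the 94 were higher by 2-fold or more, against 7.25% of all genes, and 11 (11.7%) were lower, against 6.57%. SLC7A8, the neutral amino acid exchanger, had the largest difference: 152 in the standard culture and 556 at 50% confluence, 4.29-fold higher and still inside the range of the lines (100 to 619). SLC29A1, the nucleoside uniporter, was 168 and 354, 2.54-fold higher, and the standard culture of male 2 was the lowest of the 11 lines. SLC11A1 (100 and 193), SLC7A7 (106 and 194) and SLC7A4 (119 and 191) passed after quantile normalization and after median scaling. The deposited values of SLC7A7 and SLC7A4 differ by less than 2-fold. Those of SLC11A1 differ by at least 1.93-fold, a bound because the standard culture stood at the floor. Its other probe sets stood at the floor on all 12 arrays.

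Besides SLC13A2 and SLC4A7, the 11 lower genes were carriers of several classes. SLC5A3, the myo-inositol carrier, was 843 and 351, SLC5A2 400 and 161, and SLC18A3 505 and 161. The anion exchanger SLC4A1, known from red blood cells, was 391 and 112, and SLC22A24 519 and 186. SLC6A7, a proline transporter, was 1774 and 898, just under 2-fold on deposited values, and SLC6A8 507 and 172. Second probe sets of these carriers that passed the filter gave smaller or opposite log2 differences, -0.47 for SLC6A7 against -1.08 and 0.41 for SLC6A8 (143 and 141) against -1.34, and that of SLC5A3 stood at the floor in both cultures. SLC25A42, the mitochondrial coenzyme A carrier, and SLC38A10 were 333 and 310 in the standard culture and at the floor at 50% confluence. In 7 of the 11 (63.6%) the standard culture of male 2 was the highest of the 11 lines, against 47.8% of the 360 genes lower by 2-fold. After normalization, only SLC13A2 and SLC4A7 of the 11 genes lay below all 11 lines at 50% confluence.

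These counts moved with the scaling. The median difference over all genes was 0.00 on the log2 scale after quantile normalization, -0.03 with deposited values and 0.47 after median scaling. The solute carriers split into 5 higher and 11 lower, 2 higher and 14 lower, and 9 higher and 6 lower, respectively, so the lower share of the calls was 68.8%, 87.5% and 40%, against 47.6%, 65.7% and 12.8% over all genes. SLC7A8 (higher), SLC13A2, SLC18A3 and the chosen probe set of SLC6A8 (lower) passed 2-fold under all 3 scalings and with a floor of 200. Both arrays differed as well in the share of probe sets at the floor (40.1% standard, 49.2% at 50% confluence), in the highest intensity (43135 and 18027) and in the summed fibroblast markers (121074 and 66050). Their part in these differences was not tested.

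Whatever the size of the difference, 5 of the 94 (5.32%) lay above and 4 (4.26%) below all 11 lines at 50% confluence, against 7.17% and 4.93% of all genes, shares near the background. The 5 above, all at less than 2-fold, included SLC25A3 (9329), SLC3A2 (2894) and SLC31A1 (858), whose deposited values were also above all 11 lines. Those below all 11 lines at less than 2-fold were SLC25A1 (2272) and SLC35D1 (244). SLC35D1, a UDP-sugar carrier of the endoplasmic reticulum, was 483 in the standard culture. SLC7A1 was 485 and 831 with the chosen probe set (log2 difference 0.75), whereas its second probe set went the other way (231 and 100, -1.06).

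**Figure D4:**
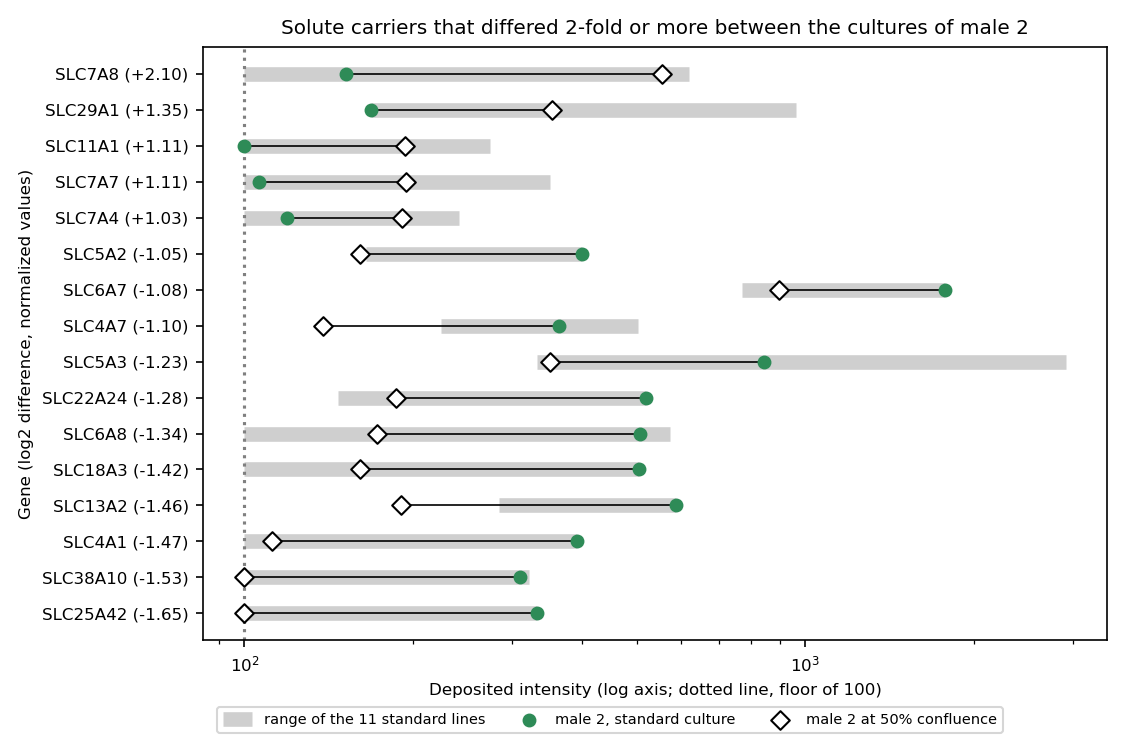
Deposited intensity on a log axis of the 16 solute carriers that differed by 2-fold or more between the standard culture of male 2 and its culture at 50% confluence, joined by a line per gene, with a grey bar for the range of the 11 standard lines. SLC13A2 (190), SLC4A7 (138) and, narrowly, SLC5A2 (161) at 50% confluence lie below the bar, and SLC7A8 moves from 152 to 556 inside it.

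Differences between the sexes (male minus female), and the change per 10 years of age with sex in the same model, were estimated by limma from the 11 standard arrays. For sex, 0 of 7541 probe sets had an adjusted p under 0.05 (0% called), with 398 at an unadjusted p under 0.05. Of the 94 solute carriers, none was called, and 1 had an unadjusted p under 0.05. That gene was SLC6A11, a GABA transporter: females gave 240, 153, 180, 173, 211 and 237, and males 100, 217, 100, 100 and 137, a log2 difference of -0.69 ± 0.21 (SE) with a limma adjusted p of 0.884. The groups overlapped, since male 2 lay among the females, and with a floor of 200 the difference was -0.06. The next by p were SLC5A2 (0.47 ± 0.22), SLC1A4 (0.68 ± 0.33) and SLC25A11 (0.45 ± 0.23), higher in males, and SLC61A1 (-0.36) and SLC67A1 (-0.85 ± 0.44), lower in males, each with a limma adjusted p of 0.888. With the line labelled female 3 left out, SLC6A11 gave -0.71, SLC5A2 0.46, SLC1A4 0.52 and SLC25A11 0.40. SLC61A1 gave -0.36 and SLC67A1 -0.79 without it. The difference of SLC1A4 was 0.49 without male 1. Without the line labelled female 3, 1 probe set was called, for RPS4Y1, and no solute carrier.

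For age, 0 of 7541 probe sets were called by limma (0%), with 407 at an unadjusted p under 0.05, and 4 of the 94 solute carriers were among the latter. The lowest limma adjusted p of a member was 0.851. The copper transporter SLC31A2 had a slope of 0.43 on the log2 scale per 10 years and the cystine exchanger SLC7A11 a slope of 0.41. These rested on the youngest donors: without female 6, aged 2, the slope of SLC31A2 was -0.02, and that of SLC7A11 was 0.09 without male 5, aged 3, and -0.17 among the 9 adult lines. SLC9A8, a sodium proton exchanger of the Golgi, had a slope of 0.22. Its intensities ran from 100 to 209, and with a floor of 200 the slope was 0.007. SLC25A4, SLC8A1 and SLC35D1 had slopes of -0.30, -0.29 and -0.25, and those of SLC8A1 and SLC35D1 turned positive among the adult lines (0.04 and 0.07). In simulated data of 7541 probe sets with independent normal noise, 100 were shifted by 1 log2 unit and another 100 by 2. Of those shifted by 1 unit, the fit recovered 54% for sex and 94% per 10 years of age, with 7 and 10 false calls. A slope of 1 per 10 years is larger than that of any solute carrier here, so the 94% does not cover slopes of the size seen. The same holds for the 54%, since the largest sex difference of a solute carrier was -0.85, for SLC67A1. The simulated shifts also followed the labelled sex of every line. The 54% thus does not cover a case like the line labelled female 3, whose RPS4Y1 signal was near that of the males.

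A list of 27 partners of these carriers (subunits, sodium pump chains, regulators, carbonic anhydrases) had 19 genes with a probe set, of which 18 passed the filter. Of these 18, 6 varied 4-fold or more between lines, against 13.1% of all genes, and none was called by limma for sex or age. At 50% confluence 1 was higher by 2-fold, ATP1B1, a chain of the sodium pump that keeps up the gradient used by many carriers (853 and 2502), and 4 were lower, namely FXYD1, TXNIP, STC1 and STC2, against 7.25% and 6.57% of all genes. The list was chosen with earlier results of these data known, and these shares were not tested. BSG, the chain that carries lactate transporters to the surface, ranged from 2486 to 5921.

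Pairs of genes listed as sharing a complex or a regulator were set against each other across the 11 lines. This was done for 4 of 10 planned pairs, since the others lacked a probe set or signal. SLC3A2 and its light chain SLC7A5 gave Pearson's r = 0.15 (permutation p = 0.66, adjusted 0.708) and Spearman's rho = 0 (permutation p = 1), and r = -0.20 without the 2 lines farthest from the median of SLC3A2. For SLC3A2 and SLC7A1, r was -0.47 (permutation p = 0.13, adjusted 0.52), rho -0.30, and r without 2 lines -0.59. For SLC30A1 and MT2A, zinc-induced genes, r was 0.19 (permutation p = 0.61, adjusted 0.708), rho -0.25 and r without 2 lines -0.22. For the glucose carriers SLC2A1 and SLC2A3, r was 0.13 (permutation p = 0.708, adjusted 0.708), rho 0.13 and r without 2 lines 0.23. Without the line labelled female 3, r was 0.38, -0.49, 0.25 and 0.03 for the 4 pairs in that order. None of the 4 relations passed the threshold after Benjamini-Hochberg adjustment, with or without that line.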

How the data were processed

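The authors deposited linear intensities of 12625 probe sets on 12 arrays, and the values end at a floor of 100. The sources used here do not give the software and scaling behind the deposited intensities, and no detection calls were used. Gene symbols came from the platform annotation, which gave several for 545 probe sets and listed 1119 not at all. Of the 154 members, 148 were found in the gorilla gene table (assembly NHGRI_mGorGor1-v2.1), used for names only, and no sequence or coordinate is given.

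Intensities were taken to log2 and quantile normalized. Probe sets with a mean above the 40th percentile (7541 of 12625) were tested with limma 3.58.1 (lmFit and eBayes) in R 4.3.3, with Benjamini-Hochberg adjustment at 0.05; the rest used Python 3.11.15, with 100000 resamples for correlations. The fit was tested on simulated data. Levels and ranges between lines are deposited intensities, while folds at 50% confluence and SDs are from normalized values.

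Named genes were those counted at 50% confluence, the 12 with the largest SD, the 3 with the smallest p per direction for sex and age, and, among members above the floor throughout, up to 4 per class by largest and 1 by smallest SD. Others were named after their values were seen. The members, lists and alternatives (scaling, floor, filter, fold, probe set choice, adult donors, each line left out) were chosen with earlier results of these data known.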

Additional observations from a re-analysis of the deposited data

Results flagged for a closer look

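Within the 6 lines labelled female or the 5 labelled male, 70 sets of values of the named solute carriers were checked for a line far from the others, and 5 held one. Chance gives about 1 in 20, but these genes were named in part for their large spread, so that rate is no measure for them. SLC31A2, the copper transporter, stood at 100, the floor, in female 6, with the other 5 lines labelled female between 412 and 570. SLC35D1, the UDP-sugar carrier, was 1007 in male 5 and between 360 and 483 in the other males. SLC4A1, the anion exchanger, was 391 in male 2 and at most 145 in the other males. SLC8A1, the sodium calcium exchanger, was 321 in female 6 and 110 in male 3, and stood at the floor in all other lines, where any value above 100 counts as far from the rest.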

How the results depend on the processing

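A count was taken as stable within 1.5 times, a difference at 50% confluence if it moved by less than the SD between lines, and a sex difference, age slope or relation if its direction and side of the threshold held. None of the latter passed the threshold, so this says little of their size. By these rules 119 values of counts and relations were stable, 17 moved and 1 reversed, and for single genes 265, 7 and 5. Over all probe sets, limma called 2 by sex when the 50% culture stood for male 2 (RPS4Y1 and a probe set for NEAT1 and MIR612), and 0 to 1 with a line left out. Solute carriers 2-fold at 50% confluence and outside the range of the lines, 0 higher and 2 lower, became 4 and 1 after median scaling. There were 0 lower at 3-fold, 1 lower with a floor of 200, and 5 higher and 11 lower with no condition on the range. With no such condition, and as settings chosen after seeing the data, 2 were higher with deposited values, 9 higher and 6 lower after median scaling, and 1 higher and 6 lower with a floor of 200. The 15 genes varying 4-fold were 30 at 3-fold, 5 at 6-fold, 8 with a floor of 200 and 11 to 15 with a line left out. Above the floor on at least 6 of the 12 arrays were 86 solute carriers. Age slopes reversed for SLC31A2 (-0.019 without female 6, up to 0.617 without male 5), SLC7A11 (-0.17 in adults), SLC8A1 (0.036 in adults, 0.045 without female 6, down to -0.432 without male 5) and SLC35D1 (0.071 in adults). The relation of SLC30A1 and MT2A reversed to r = -0.069 in adults (permutation, adjusted p = 0.853). The alternatives with fewer lines or another fold differ by construction, and for the others the cause was not tested. No paired test was possible, because only male 2 gave a second culture.

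Limits of these data are that 94 of the 154 genes passed the filter, that folds against the floor of 100 are lower bounds, and that a second culture without a replicate cannot give an error.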
